A study of Mus musculus with 4 samples.

Results

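The complete and the inverted CTCF array were compared in 2 of the 4 libraries of a CTCF CUT&RUN series in mouse embryonic stem cells (mESC), 1 library each. In CUT&RUN, a nuclease tethered by an antibody cuts out the DNA next to the bound protein. Both lines are HoxB Del/Del(i9-13), that is, they carry the HoxB deletion (Del) on one chromosome 11 and lack the stretch i9-13, between Hoxb9 and Hoxb13, on the other. That second chromosome also holds the inserted array, written Ins(CBS5-10), in both lines. The line called Ins has no further edit, and the line called Inv adds Inv(CBS5-10), the inversion of the array, as the sole difference between the genotype labels. The labels do not say whether either line is a single clone. The other 2 libraries, with reduced arrays (Del(CBS8-10) and Inv:Del(CBS7-10)), serve only to say where else a site was found.

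CTCF is a zinc-finger protein that binds a long, directional DNA motif and halts the loop-extruding cohesin ring. Cohesin is held mainly at CTCF sites whose motifs face each other, so turning an array around changes which partners it can loop to without changing its sequence. In the HoxB cluster, the stretch i9-13 separates Hoxb13, the most posterior gene, from Hoxb9 and the rest of the cluster. The array sites were found in the authors' peak lists by position on chromosome 11 of a modified mm10 genome, between the ends of Hoxb13 and Hoxb9. That genome holds the array uninverted for both libraries, so a site of the Inv line is listed at its place in the uninverted array and the lists carry no motif orientation.

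The Ins list held 93969 peaks and the Inv list 66365. Sequencing depth was read from the lists themselves, as the pileup (the number of reads or fragments over the summit) and the background that the peak caller assigned to it. The genome-wide background was 0.858 in Ins and 0.19 in Inv, a ratio of 4.52, and the median pileup at a peak was 26 against 14, a ratio of 1.86. These 2 medians are over different sets of peaks. At summits found in both lists on the autosomes other than chromosome 11, the median ratio of Inv over Ins pileup was 0.375. The ratio of depths therefore depends on which quantity is taken. Absence of a peak in Inv was read against this lower depth throughout, and with 1 library per genotype no test could be made. Intervals are 95% intervals (Wilson for shares, exact binomial for ratios of 2 pileups) and cover counting error only. Summits (the highest point of a peak) within 100 bp of each other counted as the same site. An Ins summit with no Inv summit is called lost and an Inv summit with no Ins summit is called gained, as names for presence in a list.

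Of the 6 array sites with a summit in Ins, 3 were also in Inv. These were sites 3, 4 and 6, counted from the Hoxb13 side of the uninverted array, and the missing ones were sites 1, 2 and 5. On the array-bearing chromosome 11 outside HoxB, 37.2% of Ins summits had no Inv summit, against 3 of the 6 array sites. Among its Ins summits with a −log10 q of at least 10, a strength that all 6 array sites reached, the share was 16.8%. No array summit was found in Inv alone. The 3 shared summits lay 2 or 3 bp from their Ins positions.

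Site 3, with its Ins summit at 96200095, had a pileup of 89 in Ins and 38 in Inv, with −log10 q of 39.4 and 24.1. The log2 ratio of Inv over Ins was -1.23 (interval -1.82 to -0.66). Site 4 (96200618), the tallest of the array in both libraries, had pileups of 112 and 41 and a log2 ratio of -1.45 (interval -2.003 to -0.922). Site 6 (96201666) is the site nearest Hoxb9 in the uninverted array, and not in the inverted one. It had pileups of 86 and 17, a log2 ratio of -2.34 (interval -3.18 to -1.58) and a −log10 q of 5.26 in Inv. In Ins, sites 3 and 6 were nearly level, whereas in Inv site 3 was higher than site 6 and their ratio intervals met only between -1.82 and -1.58. Sites 3, 4 and 6 held 39.6%, 42.7% and 17.7% of the summed array pileup in Inv.

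These ratios read differently against different reference summits. Shared summits of the same chromosome outside HoxB had a median log2 ratio of -0.89 (n = 3192). Relative to it, sites 3, 4 and 6 lay at -0.34, -0.56 and -1.448. Shared summits of the other autosomes had a median of -1.42 (n = 45505), and against them site 3 turned to +0.19, site 4 stood at -0.03 and site 6 at -0.92. Site 6 was the lowest of the 3 against either reference. Among Ins peaks of like pileup (within 20%) on the same chromosome, 3.01% (15 of 498, interval 1.83 to 4.91) were absent in Inv or had a ratio as low as site 6. On the other autosomes this share was 17.2% (1798 of 10460). For site 3 the shares were 33.3% (148 of 445) and 70.9%, and for site 4 they were 20.6% (45 of 218) and 53.3%, so both lay well inside the range of like peaks.

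The 3 absent sites had Ins pileups of 54 (site 1, at 96199065), 58 (site 2, at 96199594) and 91 (site 5, at 96201261) over backgrounds of 13.5 to 13.6, as at the other array sites. A limit for an absent site was taken from the Inv list. Of 932 Inv peaks with a background from 3.2 to 3.6, close to the array's 3.4, the lowest pileup was 12. A site with a pileup of 11 or less would therefore have gone unlisted there, if its background was that of the neighbouring sites. From pileup alone, site 5 had a log2 ratio of at most -3.05, site 1 of at most -2.30 and site 2 of at most -2.40. Width can also keep a site off the list, since no Inv peak was narrower than 200 bp. In Ins, site 1 was 207 bp wide, site 2 275 bp and site 5 298 bp. A site narrower than that in Inv could have had a higher pileup, which was not tested. At the median ratio of its chromosome (0.539), site 5 would have had a pileup of 49.1 in Inv, site 2 of 31.3 and site 1 of 29.1. The median ratio of the other autosomes was lower (0.375), so all 3 values would be lower with that reference.

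Site 5 stood apart from peaks of like pileup. Of 446 such peaks on the same chromosome, 2 (0.448%, interval 0.123 to 1.62) were absent or at or below that limit, and on the other autosomes 588 of 10285 (5.72%) were. Site 1 was less unusual, at 71 of 777 (9.14%) on its chromosome and 32.8% on the other autosomes, and site 2 stood at 55 of 776 (7.09%) and 27.7%. Array backgrounds, solved from the same peak values as the pileups, were high for their libraries. They were 15.8 times the genome background in Ins and 17.9 times in Inv. Few like peaks were left when a background within 1.5 times that of the site was also required. Missing in Inv were then 4 of 13 for site 1 (interval 12.7 to 57.6%) and 5 of 15 for site 2 (15.2 to 58.3%). For site 5 it was 1 of 17 (1.05 to 27.0%). When matched on −log10 q alone, 45.3% of like peaks were missing for site 1, 37.7% for site 2 and 6.34% for site 5. Under each of these 3 ways of matching, the absence of site 5 was shared by a smaller part of like peaks than that of sites 1 and 2. With background matched the intervals overlapped, so the difference is not resolved there. In that matching, like peaks of the found sites 3 and 6 were missing in 1 of 14 and 1 of 15 cases.

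**Figure D1:**
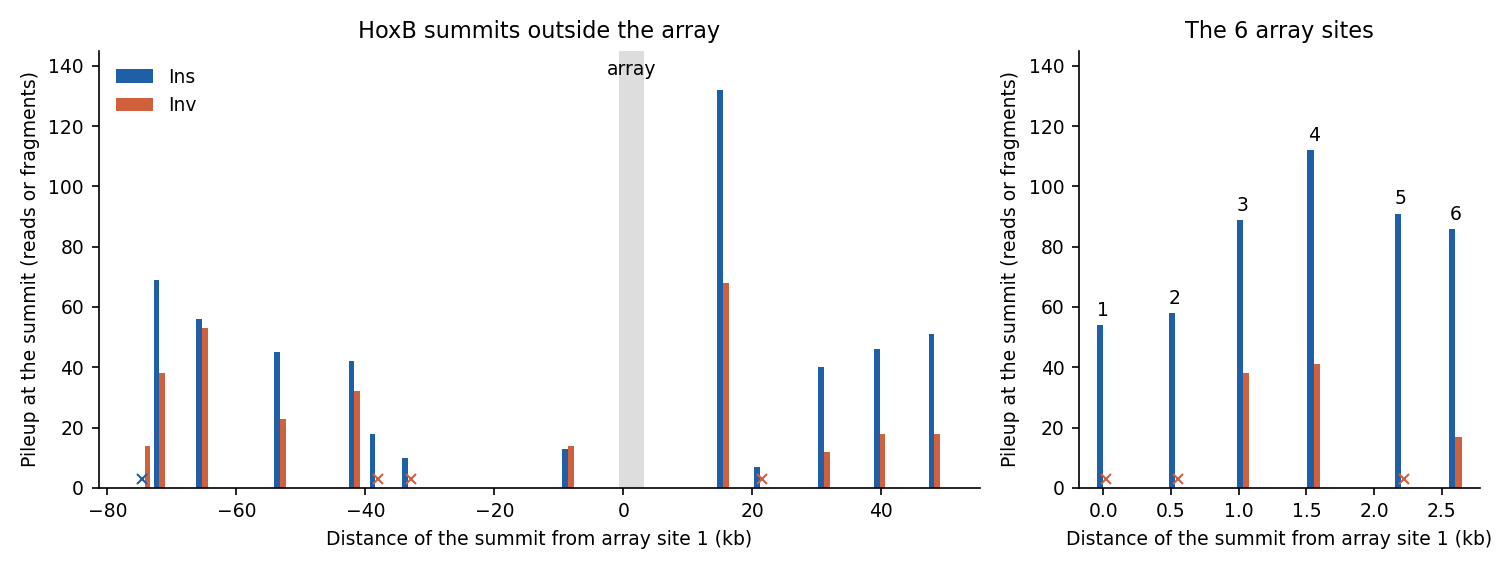
Pileup at each summit (reads or fragments, vertical axis) against its distance from array site 1 in kb, in Ins (blue) and Inv (orange), 1 library each, with no error bars since there are no replicates. Crosses mark a summit missing from that list. Array sites 1, 2 and 5 have no orange bar, and the tallest summit outside the array, beside Hoxb8, has pileups of 132 and 68.

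Outside the array, the array-bearing HoxB region from Ttll6 to Hoxb1 held 12 summits in Ins and 10 in Inv, of which 9 were shared. The 3 Ins-only summits were weak, and the single Inv-only summit, at 96124831 in Ttll6, had an Inv pileup of 14 and a −log10 q of 5.44. Ttll6, a tubulin polyglutamylase gene just outside the cluster on the Hoxb13 side, carried 4 shared summits. Their pileups in Ins and Inv were 69 and 38, 56 and 53, 45 and 23, and 42 and 32, in order towards Hoxb13. A weak summit 3.84 kb from Hoxb13 had pileups of 13 and 14, the sole shared HoxB summit of this chromosome that was not lower in Inv. The Ins-only summits in Ttll6 had pileups of 18 and 10, and that in Hoxb8 had 7.

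On the other side of the array, toward the anterior genes, 4 summits were shared. The summit 0.442 kb from Hoxb8, the highest of the cluster, went from a pileup of 132 in Ins to 68 in Inv, a log2 ratio of -0.96 (interval -1.40 to -0.52). The summit in Hoxb6 had pileups of 40 and 12 and a log2 ratio of -1.74 (interval -2.80 to -0.78). At the summit in the antisense transcript Hoxb5os they were 46 and 18 (-1.35, interval -2.23 to -0.54). In Hoxb3 they were 51 and 18 (-1.50, interval -2.37 to -0.70). Hoxb8, Hoxb6 and Hoxb3 encode homeodomain factors that pattern the body axis, and Hoxb5os overlaps Hoxb6 and Hoxb5.

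Relative to the median of their chromosome, the 4 Ttll6 summits and the Hoxb13-side summit lay at 0.03, 0.81, -0.08, 0.50 and 1.00. The Hoxb8, Hoxb6, Hoxb5os and Hoxb3 summits lay at -0.07, -0.85, -0.46 and -0.61. Against the median of the other autosomes the latter 4 changed to 0.46, -0.32, 0.06 and -0.09, so that Hoxb8 and Hoxb5os switched sign with the reference. The Ttll6 and Hoxb13-side summits were all above the autosomal reference, by 0.45 to 1.52. The intervals of the Hoxb8, Hoxb6, Hoxb5os and Hoxb3 ratios overlapped one another, so their order is not resolved at this depth.

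The Del chromosome of the same cells carries Ttll6 but not the array. Its HoxB region held 7 Ins summits and 6 Inv summits, of which 5 were shared. In Ttll6 the pileups in Ins and Inv were 69 and 49, 83 and 47, 44 and 22, and 53 and 31, and at the summit matching the one 3.84 kb from Hoxb13 on the array copy they were 8 and 9. Whether Hoxb13 itself lies on the Del chromosome was not determined. Relative to the median of that copy these ratios lay at 0.41, 0.09, -0.09, 0.13 and 1.08. This last summit, at a pileup of 8 to 14 on either copy in either library, was thus not lower in Inv on either chromosome. Near-identical sequence on both copies lets the aligner place a read on either, and how the authors treated such reads is not stated in the labels.

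**Figure D2:**
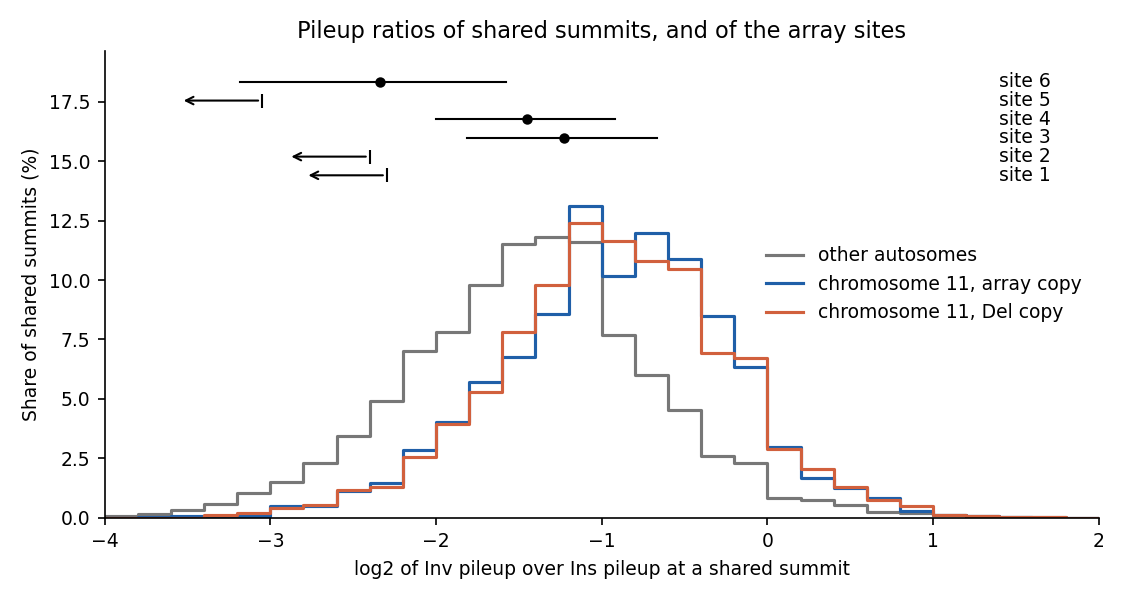
Share of shared summits (vertical axis, percent) by log2 of the Inv over the Ins pileup (horizontal axis, bins of 0.2), for the other autosomes and both copies of chromosome 11. Points with lines above are array sites 3, 4 and 6 with their counting intervals. Arrows start at the upper limits of sites 1, 2 and 5 from pileup alone, the limit of site 5 lying farthest left at -3.05.

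Chromosome 11 as a whole stood apart from the rest of the genome in this comparison, on both copies. The median log2 ratio at shared summits was higher than on the other autosomes by 0.52 on the array copy and by 0.51 on the Del copy, which is 1.44 and 1.42 times on the linear scale. The other autosomes spanned -0.05 to 0.08 around their common median, from chromosome 16 (the lowest) to chromosome 14. The local background, solved from the same peak values as the pileup, moved by a similar amount, 0.56 and 0.57. The excess was present in each of 13 bins of 10 Mb on either copy, from 0.40 to 0.65 on the array copy and from 0.37 to 0.63 on the Del copy. The same quantity was -0.03 and -0.03 for the Del(CBS8-10) library against Ins, and 0.05 and 0.08 for the Inv:Del(CBS7-10) library against Ins. All of these comparisons share the Ins library. The excess was thus listed along both copies in the Inv library. Reads of near-identical sequence can be placed on either copy, so the 2 copies are not separate observations of it. The array and the summits of Hoxb8, Hoxb6, Hoxb5os and Hoxb3 were listed on the array copy only. Against the median of the other autosomes, these HoxB summits lay at 0.46, -0.32, 0.06 and -0.09. Array sites 3, 4 and 6 lay at 0.19, -0.03 and -0.92. Whether each chromosome carries the excess was not tested. The part of the excess in the array results was not tested beyond the 2 references given beside each value.

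Presence and absence followed the same difference. On chromosome 11 outside HoxB, 1893 of 5085 Ins summits (37.2%, interval 35.9 to 38.6) had no Inv summit on the array copy, and 1839 of 5029 (36.6%) had none on the Del copy. On the other autosomes the share was 43.9% (35549 of 81054, interval 43.5 to 44.2). At a −log10 q of at least 10 in Ins, the shares were 16.8%, 17.4% and 23.7%. In the other direction, 880 of 4071 Inv summits on the array copy (21.6%) and 880 of 4070 on the Del copy (21.6%) had no Ins summit, against 19.1% (10738 of 56237) on the other autosomes. At a −log10 q of at least 10 in Inv these shares fell to 5.12%, 5.23% and 4.13%.

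The flanks of HoxB resembled the rest of the chromosome. Within 1 Mb of the cluster on the array copy, 85 of 208 Ins summits (40.9%, interval 34.4 to 47.7) were lost, against 37.7% (1462 of 3882) farther than 10 Mb away. Gained summits made up 37 of 160 (23.1%, interval 17.3 to 30.2) within 1 Mb and 21.5% beyond 10 Mb. The median log2 ratio was -0.79 within 1 Mb and -0.90 beyond 10 Mb. The intervals of the near shares included the far ones.

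Among the summits with no counterpart within 500 bp, the strongest lost one on the array copy lay at 25100149, with a pileup of 138 and a −log10 q of 172.0 in Ins and no summit in any other list. The nearest protein-coding gene, Bcl11a, a zinc-finger repressor gene, was 927 kb away. The next 4 lost summits had Ins −log10 q from 52.4 to 59.1 and were all present in both reduced-array lists. They lay near Spdl1, a spindle checkpoint gene, far from Il12b and Sgcd, and in Dnah2, an axonemal dynein gene. The 5 strongest gained summits were weaker, with Inv −log10 q from 19.2 to 29.4, in the lncRNA gene Gm30305, in Tbc1d16, and near Mfap3, Rabep1 and Meox1, a mesodermal homeobox gene. All 5 were also in the Inv:Del(CBS7-10) list and 1 of them, near Mfap3, in the Del(CBS8-10) list.

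On the other autosomes most lost summits were weak peaks of the deeper library. Lost summits had a median pileup of 14 and a median −log10 q of 7.48 in Ins, against 56 and 47.3 for shared ones. The share lost was 86.3% below a −log10 q of 5, 57.1% between 10 and 20, 25.7% between 20 and 50, 3.14% between 50 and 100 and 0.959% above 100. On the array copy of chromosome 11 it was 42.5% between 10 and 20 and 12.1% between 20 and 50, below the autosomal share in both bands. Gained summits were weaker still, with a median pileup of 6 in Inv, and the share gained went from 54.1% below 5 to 1.05% between 20 and 50.

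**Figure D3:**
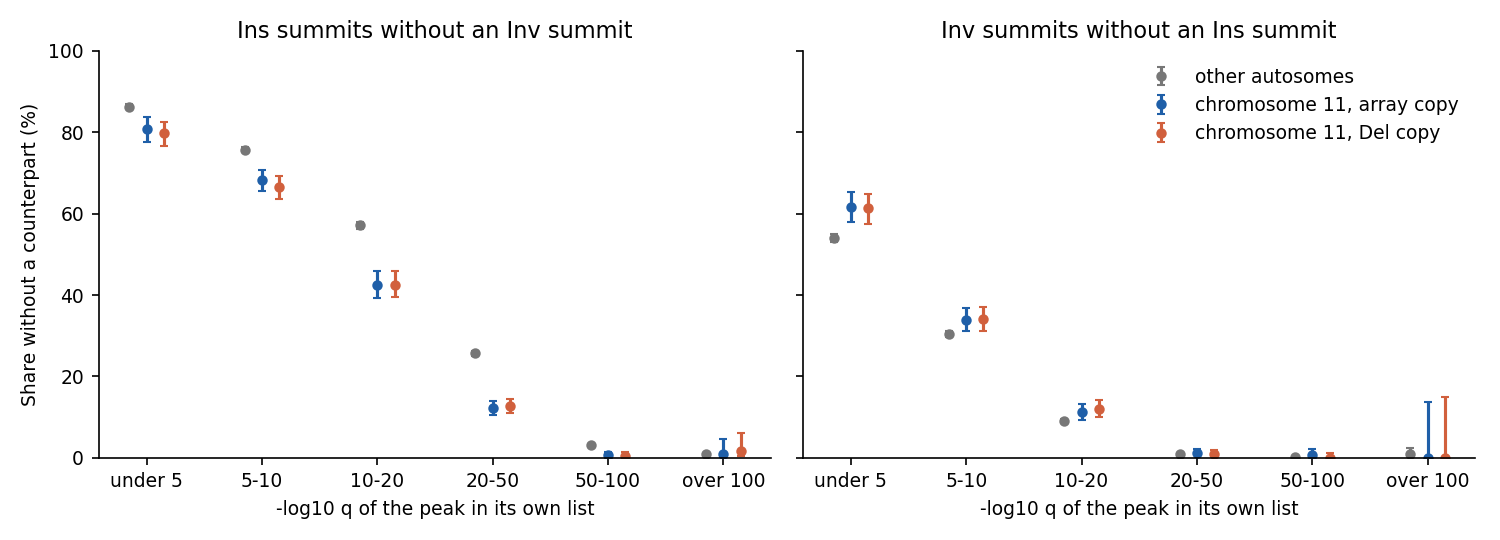
Share of summits with no counterpart in the other list (vertical axis, percent, with 95% Wilson intervals) by −log10 q of the peak in its own list (horizontal axis), for the other autosomes and both copies of chromosome 11. The share lost on the other autosomes goes from 86.3% in the weakest band to 0.959% in the strongest, and chromosome 11 lies lower in the middle bands on the left panel.

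Most of the stronger lost summits were bound in the other lines. Of 3893 lost autosomal summits with a −log10 q of at least 20 and no Inv summit within 500 bp, 87.8% had a summit in Del(CBS8-10), 91.2% in Inv:Del(CBS7-10) and 3.16% in neither list. Shared summits with the same minimum of −log10 q were found there in 97.8% and 99.5% of cases. Gained summits were distributed otherwise. Of 719 with a −log10 q of at least 10 and no Ins summit within 500 bp, 591 (82.2%) were also in Inv:Del(CBS7-10) and 133 (18.5%) in Del(CBS8-10), against 99.2% and 94.7% of shared summits of that strength. These lists are the deepest and, after Inv, the shallowest of the other lists, with 99177 and 74555 peaks and median pileups of 35 and 17, so the kind of array and the depth of the list cannot be told apart here.

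Some lost and gained summits were pairs of the same peak with the summit placed differently. Of the lost autosomal summits 2565 had an Inv summit between 100 and 250 bp away, and of the gained ones 2116 had an Ins summit at such a distance. The strongest lost and gained summits near ribosomal protein genes, both at Rps29, were such a pair 139 bp apart, with an Ins −log10 q of 146.8 and an Inv −log10 q of 50.4. For this reason the individual sites named below have no counterpart within 500 bp unless stated. Some still had a summit of the other list within 1 kb, as at Dpp9 (0.758 kb), Pcdh20 (0.728 kb) and Ptges (0.985 kb).

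The 10 strongest lost autosomal summits fell into 2 kinds. At the start of chromosome 9, nearest to Alkbh8, 4 of them had Ins pileups from 1405 to 2213 over backgrounds of 467 to 816, and fold values of 2.71 to 3.23. All 4 were present in both reduced-array lists. The other 6 had no summit in any other list and lay in the lncRNA gene Gm34259, 99.6 kb from Gm8882 and 47.4 kb from Sulf1 (a heparan sulfate sulfatase gene) as the nearest protein-coding genes, 8.09 kb from the olfactory receptor gene Olfr854, and inside Dpp9, a dipeptidyl peptidase gene, and Auts2. Their pileups were 210 to 479 and their fold values 23.5 to 41.3.

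The 10 strongest gained autosomal summits had Inv −log10 q from 28.3 to 40.0 and pileups from 24 to 82. The strongest lay 18.5 kb from Ly6c2, a monocyte surface antigen gene, and had a −log10 q of 135.8 in the Inv:Del(CBS7-10) list. Next came a summit in the lncRNA gene Gm31746 with 39.4, then 1 of 2 neighbouring summits by Crebzf, a bZIP factor gene, with 35.0. The 2 Crebzf summits had pileups of 38 and 36 and were in no other list. The summits with Brinp3, Adcyap1 (the neuropeptide PACAP), Gm5955 and Pcdh20 as the nearest protein-coding genes, at distances of 299.7, 439.2, 18.1 and 7.96 kb, were in both reduced-array lists. The summit in Ptges, a prostaglandin E synthase gene, and a summit in Sox2ot were in the Inv:Del(CBS7-10) list, with −log10 q of 104.7 and 88.7, and not in the Del(CBS8-10) list.

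By location, the share lost differed little between classes until peak strength was considered. The share lost was 45.4% at promoters (within 1 kb of a known gene start), 45.4% inside protein-coding genes, 42.7% inside lncRNA genes, 41.6% inside other genes, 40.8% within 10 kb of a gene and 43.7% farther away, against 43.9% over all. Because these classes differ in peak strength, each was set beside the share that all autosomal summits of the same −log10 q lost, averaged over the class in 12 bands. That share was 52.7% for promoters, whose median −log10 q was 12.3, and the interval of the observed promoter share, 44.2 to 46.5, lay below it (3197 lost, with 3711 at the shares of their bands). Inside protein-coding genes the observed 45.4% stood above 43.5%. For the 4 further classes, in the order given, the shares at like strength were 42.8%, 42.2%, 40.8% and 44.6%. Shared promoter summits also had a median log2 ratio 0.15 above that of all shared autosomal summits.

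Among gained summits, promoters lay below and summits far from genes above the share for their strength. At promoters 20.8% of Inv summits (1010 of 4861, interval 19.7 to 21.9) were gained, against 23.8% for all of like strength and 19.1% over all. Farther than 10 kb from any gene 23.0% (2388 of 10377, interval 22.2 to 23.8) were gained, against 19.6% for like strength. Inside protein-coding genes 17.8% were gained, against 18.8%. At a −log10 q of at least 10, 6.09% of far summits were gained and 3.22% of those in protein-coding genes, against 4.13% over all. At that strength promoters lay slightly above the overall share in both directions, with 5.13% gained and 24.6% lost, against 23.7% lost over all. Gene starts were known for 15186 of the 19056 protein-coding genes of these autosomes, so summits at the remaining starts count under other classes.

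**Figure D4:**
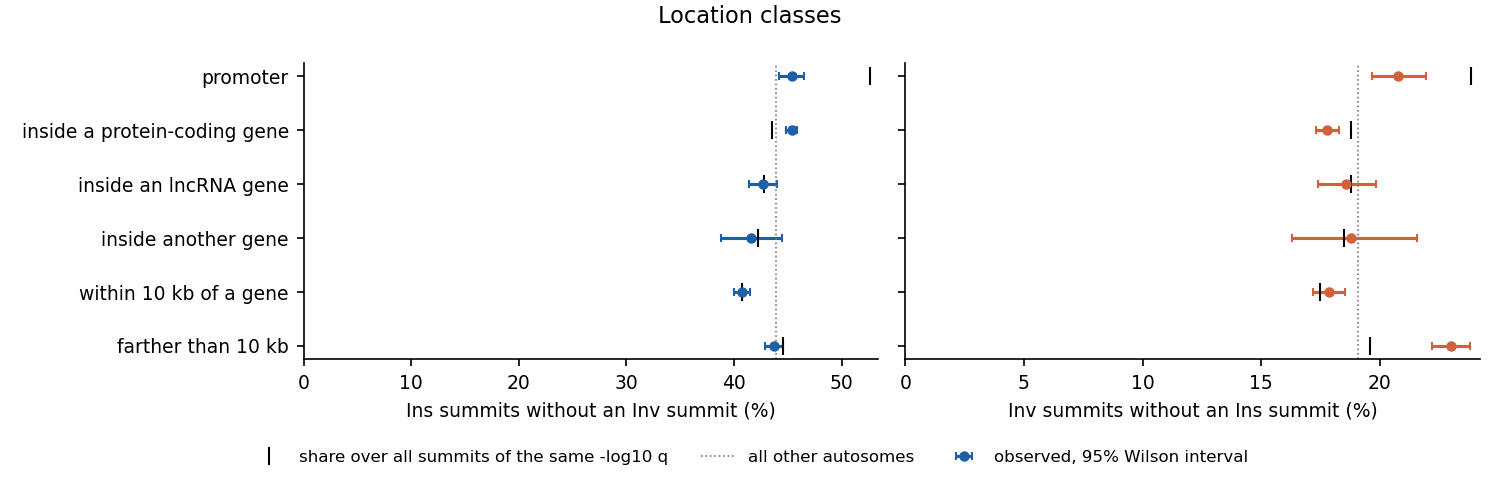
Share of summits without a counterpart (horizontal axes, percent, starting at 0, points with 95% Wilson intervals) in 6 location classes, lost on the left and gained on the right. Black ticks give the share over all autosomal summits of the same −log10 q and the dotted line the share over all of them. The promoter points, at 45.4% and 20.8%, lie left of their ticks at 52.7% and 23.8%.

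Among promoters, the strongest lost summits lay at Dact3, a Wnt pathway antagonist gene, Mrpl11, a mitochondrial ribosomal protein gene, Unc45a, a myosin chaperone gene, Neurl1a, and Mycn, a proto-oncogene. Their Ins pileups were 138, 91, 131, 101 and 101, and their −log10 q 89.6, 86.1, 83.6, 69.0 and 64.8. The nearest Inv summit lay 0.696, 6.39, 0.658, 0.593 and 0.76 kb away, in the same order. A lost summit here thus does not mean a promoter region without an Inv summit. All 5 had a summit in both reduced-array lists. At Unc45a, Neurl1a and Mycn the −log10 q was lower in the deep Inv:Del(CBS7-10) list (12.4, 15.8 and 19.4) than in the Del(CBS8-10) list (27.7, 27.2 and 30.8), the reverse of the order of depth. At Dact3 and Mrpl11 it was 98.5 and 90.2 against 36.3 and 16.2. The strongest gained promoter summits, at Crebzf, Dpf1 (a BAF complex subunit gene), Rpl41, Garnl3 and Flywch2, had Inv pileups of 36, 45, 27, 22 and 16. Their nearest Ins summits lay 15.2, 2.36, 1.43, 0.519 and 1.17 kb away. Of these gained summits, those at Crebzf and Dpf1 were in no other list and that at Rpl41 was in both reduced-array lists.

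The DNA of promoters was searched for a core of the CTCF motif, written as CC, any 3 bases, AGG, any base and GGC, on both strands, in RefSeq windows from 250 bases before to 50 after the gene start (GRCm38.p6). Of all 29074 such windows on these autosomes 3.41% held it. Windows with a shared summit held it in 12.6% of cases (401 of 3177), those with a lost and no shared summit in 5.27% (107 of 2030, interval 4.38 to 6.33), those with a gained and no shared summit in 6.23% (43 of 690, interval 4.66 to 8.29), and those with no summit in 1.96%. Where a window held the core, 74.6% of shared summits (299 of 401) lay within 50 bp of it, against 50.0% of lost (55 of 110) and 45.5% of gained summits (20 of 44). The intervals of the lost and gained windows lay below that of the shared windows (11.5 to 13.8) and above that of windows with no summit (1.79 to 2.15). These shares were not matched on peak strength, which differed between the groups. Over all summits of these autosomes, the median −log10 q was 47.3 for shared and 7.48 for lost summits in Ins. In Inv it was 16.4 for shared and 5.30 for gained ones.

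The following stretches of 120 bases show the core (in capitals) where a summit was shared, lost or gained. They are the 2 strongest shared, the 3 strongest lost and the strongest gained case with a core, by −log10 q, and are printed 5′ to 3′ along the gene.
Uqcrc1, shared: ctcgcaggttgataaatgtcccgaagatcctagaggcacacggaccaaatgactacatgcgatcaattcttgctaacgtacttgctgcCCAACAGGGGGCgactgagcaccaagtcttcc
Abhd11os, shared: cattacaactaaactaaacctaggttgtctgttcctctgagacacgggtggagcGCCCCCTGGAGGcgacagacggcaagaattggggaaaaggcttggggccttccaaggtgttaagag
Gm16201, lost: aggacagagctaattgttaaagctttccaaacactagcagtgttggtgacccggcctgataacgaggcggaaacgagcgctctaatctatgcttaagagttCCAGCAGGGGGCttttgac
Atmin, lost: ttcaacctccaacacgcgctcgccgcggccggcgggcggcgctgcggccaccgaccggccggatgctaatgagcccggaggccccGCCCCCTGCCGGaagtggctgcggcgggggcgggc
Mmaa, lost: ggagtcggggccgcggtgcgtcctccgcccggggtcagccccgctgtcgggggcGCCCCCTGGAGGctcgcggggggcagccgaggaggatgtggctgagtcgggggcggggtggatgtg
Sowahb, gained: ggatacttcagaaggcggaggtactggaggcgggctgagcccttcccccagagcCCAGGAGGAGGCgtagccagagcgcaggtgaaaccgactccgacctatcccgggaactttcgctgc

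Uqcrc1, a mitochondrial complex III gene, is shown from chr9:108936528-108936647 on the forward strand. Its summit, 44 bp from the middle of the core, had a pileup of 343 in Ins and 109 in Inv. Abhd11os, an antisense transcript gene (chr5:135013239-135013358, reverse strand), had pileups of 385 and 121 at a summit 37 bp from its core. At the lncRNA gene Gm16201 (chr7:139949878-139949997, forward strand) the Ins summit lay 5 bp from the core, with a pileup of 59 and a −log10 q of 43.1. That site was absent in Inv and had −log10 q of 14.3 in Del(CBS8-10) and 43.8 in Inv:Del(CBS7-10). At Atmin, a zinc-finger gene of the DNA damage response (chr8:116943273-116943392, forward strand), the lost summit had a pileup of 31 and lay 47 bp from the core, with −log10 q of 23.1 in Ins, 9.41 in Del(CBS8-10) and 3.81 in Inv:Del(CBS7-10). At Mmaa, a vitamin B12 metabolism gene (chr8:79294762-79294881, reverse strand), the lost summit had a pileup of 32 and lay 9 bp from the core. Sowahb (chr5:93045143-93045262, reverse strand), a gained promoter, had an Inv pileup of 11 at a summit 126 bp from the core, outside the stretch shown.

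Gene lists gave few shares that stood clear of peak strength. Of 21 families and lists, counting summits within 10 kb of a member, 8 had a lost share above the 43.9% of all autosomal summits and 8 a gained share above 19.1%. The lists share some members, among them Sox2 and Lin28a. In the list of CTCF and cohesin genes, which encode the protein mapped here and the ring it halts, 51 of 81 Ins summits were lost (63.0%, interval 52.1 to 72.7), against 52.1% for summits of like strength, where the interval begins. At Stag1, a cohesin subunit gene, 12 of 15 summits were lost. At Nipbl, a cohesin loader gene, 9 of 13 were lost, and at Wapl, the cohesin release factor gene, 7 of 10. At the cohesin loader gene Mau2 4 of 4 were lost, at Pds5a 4 of 5 and at Rad21 3 of 4. At Smc3 4 of 8 were lost, at Ctcfl 3 of 7, at Esco1 2 of 6, at Pds5b 2 of 6 and at Ctcf itself 1 of 3. With the 20000 strongest peaks of each list, 1 of 11 summits of this list was lost (9.09%), below the 25.9% over all. The strongest lost summit of the list was in Pds5a, with an Ins pileup of 61, and it was in both reduced-array lists. Gained summits of this list made up 8 of 38 (21.1%), against 20.9% for like strength.

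Ribosomal protein genes lost 110 of 235 summits (46.8%, interval 40.5 to 53.2), against 40.5% for like strength. Sox genes, transcription factors of stem and progenitor cells, lost 25 of 69 (36.2%, interval 25.9 to 48.0), against 47.8%. Tbx genes lost 11 of 34 (32.4%), against 41.7%. The clustered protocadherins, cell-surface genes whose promoter choice depends on CTCF, had the lowest lost share, 24 of 108 (22.2%), against 22.6% for like strength. With the 20000 strongest peaks of each list it was 18 of 55 (32.7%), above the 25.9% over all, and that of the Tbx genes, 4 of 14 (28.6%), was above it too. The Hoxa, Hoxc and Hoxd genes, the other Hox clusters, lost 14 of 35 (40.0%) against 40.4% and gained 3 of 24 (12.5%) against 16.8%. Their strongest lost summit lay 3.09 kb from Hoxc13, with an Ins pileup of 32, and was in both reduced-array lists.

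The pluripotency list lost 43 of 86 summits (50.0%) against 52.5% for like strength, and gained 22 of 65 (33.8%, interval 23.5 to 46.0) against 27.4%. At Nanog 2 of 7 Ins summits were lost, at Esrrb 7 of 16, at Tfcp2l1 6 of 7 and at Pou5f1 5 of 9. The strongest lost one was in Klf5, with an Ins pileup of 54 and a −log10 q of 55.0. The strongest gained one lay 3.55 kb from Sox2 in Sox2ot, with an Inv pileup of 44. The nearest Ins summit to it was 1467 bp away. Of the 5 Ins summits at Sox2, 3 were shared, the strongest with a −log10 q of 152.2.

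Olfactory and vomeronasal receptor genes are expressed mainly in sensory neurons. They had the one gained share whose interval excluded the value for like strength from above. Of their 249 Inv summits 74 were gained (29.7%, interval 24.4 to 35.7) against 21.1%. At a −log10 q of at least 10 these were 13 of 135 (9.63%), against 4.13% over all. Within 2 kb of these genes, 14 of 63 (22.2%) were gained. Their strongest gained summit lay 0.676 kb from Vmn1r83, with an Inv pileup of 22, and was in both reduced-array lists. Histone genes gained 17 of 48 (35.4%) against 27.7%, and none of 19 at a −log10 q of at least 10. Solute carriers gained 149 of 971 (15.3%, interval 13.2 to 17.7) against 17.9%, and keratins 1 of 28. In the imprinted list 27 of 63 summits were lost (42.9% against 41.5%). All Ins summits at Igf2, Cdkn1c, Kcnq1ot1 and Zim1 were shared, while at H19 1 of 4 was lost. Other genes of that list lost more, with 4 of 5 at Plagl1, 3 of 4 at Nnat, 2 of 3 at Mest, 4 of 9 at Snrpn and 1 of 1 at Dlk1. Genes of axis elongation, which keep the tail bud growing, lost 19 of 41 (46.3% against 40.2%) and gained 8 of 30 (26.7% against 19.9%). With the 20000 strongest peaks they lost 3 of 14 and gained 1 of 12, below the overall 25.9% and 20.7%. The fibroblast list, for feeder cells that cultures of this kind can hold, lost 8 of 20 (40.0% against 33.0%). Peaks at these genes do not show whether the genes are expressed.

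**Figure D5:**
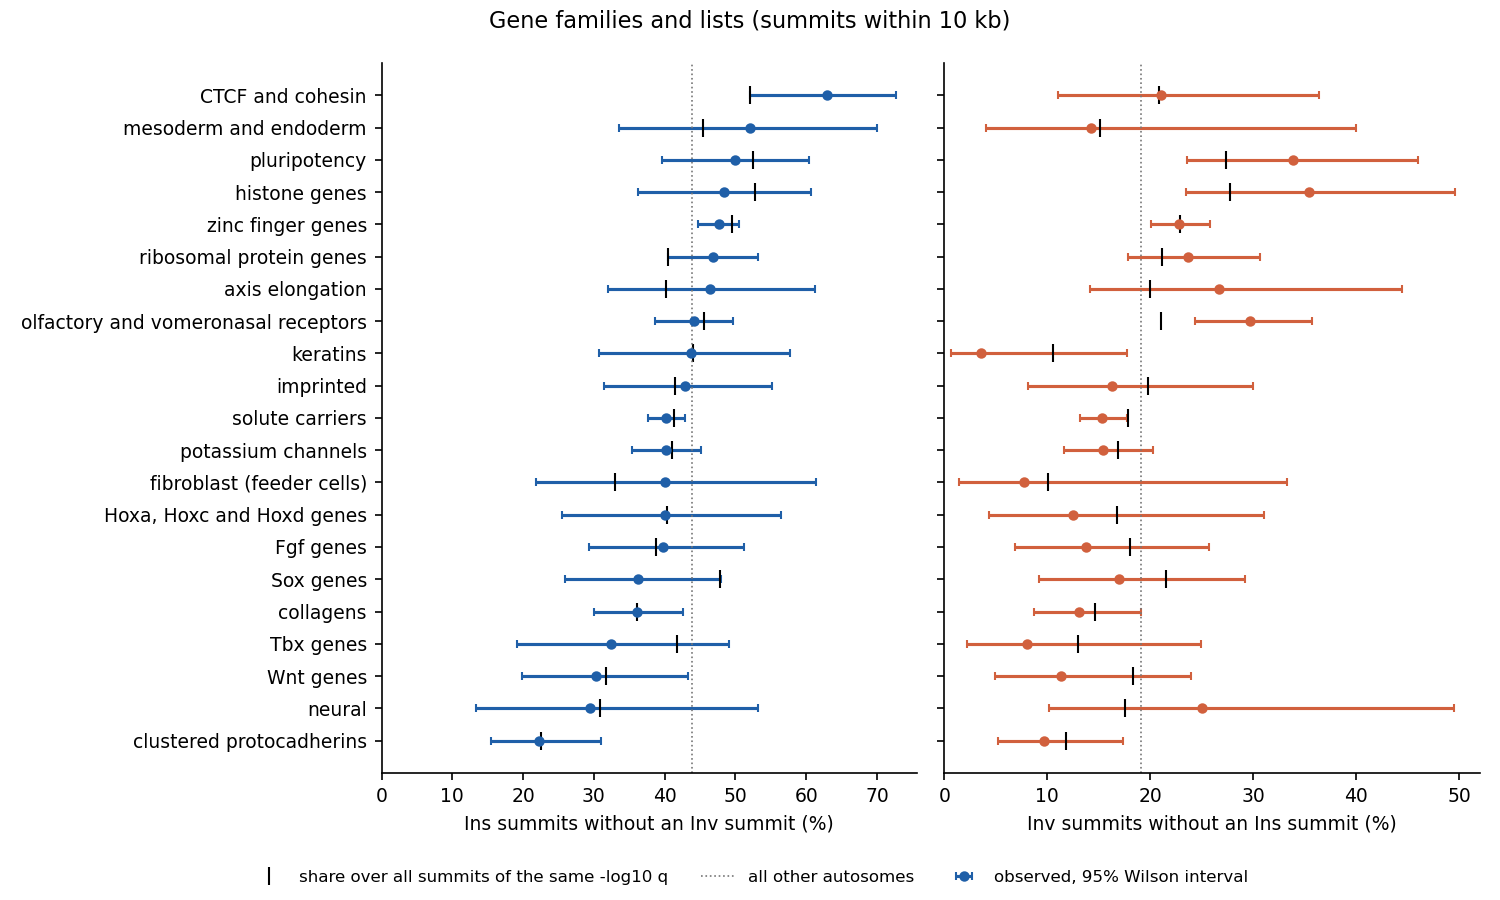
Share of summits without a counterpart (horizontal axes, percent, starting at 0, points with 95% Wilson intervals) within 10 kb of members of 21 gene families and lists, lost on the left and gained on the right. Black ticks give the share over all autosomal summits of the same −log10 q, and the dotted line the share over all of them. The CTCF and cohesin list has the highest lost share, 63.0%, and the clustered protocadherins the lowest, 22.2%.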

How the data were processed

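CTCF CUT&RUN peaks of 4 mESC libraries, 1 per genotype, were used as deposited. The submitters' processing notes name MACS2 2.2.7.1 and Bowtie2 2.4.5, the trimmer cutadapt 4.1, the tools bedtools 2.30.0 and Picard, and mm10. Their settings are not stated there, nor is a control library. The fold over local background, a ratio, the −log10 p-value, the −log10 q-value and the score (10 times the −log10 q) of each peak were deposited by the authors, for each library on its own, on a genome with both edited copies of chromosome 11. The lowest −log10 q per list was 1.30 to 1.31.

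From these, whole-number pileup and background were solved from fold and −log10 p together, with 1 added to each in the fold (tolerance 0.001), for 100% of peaks. For 175 Inv peaks (0.264%), and none of the other lists, more than 1 solution fitted closely and the closest was kept. In 5000 simulated peaks with a lowest background of 0.9, near that of Ins, and 5000 with 0.2, near that of Inv, the exact pileup came back for 100%. This tested the solving step, since the formula itself was assumed in the simulation. Summits were matched within 100 bp. Summits of all autosomes except chromosome 11 were classed with GRCm38.p6 RefSeq tables, in which 90 of 91 symbols of 7 hand-written lists were matched (Raldh2 was not), beside 14 families defined by symbol. Genes after HoxB were placed with an offset of 64475 bp on the array copy and 174550 bp on the Del copy. Computing used Python 3.11.15, NumPy 2.4.6, pandas 2.3.3, SciPy 1.17.1 and Matplotlib 3.10.9.

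The libraries, lists, rules and alternatives were chosen with earlier results of these data known. Named were every summit from Ttll6 to Hoxb1, the 10 strongest lost and gained autosomal summits with no counterpart within 500 bp, the 5 strongest at promoters and on the array copy of chromosome 11, and the strongest of each list. Counts for single genes of a list, such as Stag1 or Nanog, and the promoter sequences were chosen after their values were seen. The recovery of pileup, the 12 bands of −log10 q and the comparison of chromosome 11 with the other libraries were added after seeing the data. The alternatives tried were −log10 q of at least 10 in both lists, the 20000 strongest peaks of each, summits within 250 bp, any overlap, 50% reciprocal overlap, chromosome 11 kept, 2 kb in place of 1 kb for promoters and of 10 kb for lists, and like peaks matched on pileup and background. The array's sequence and the orientation of its motifs were not analysed here.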

Additional observations from a re-analysis of the deposited data

How the results depend on the processing

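The count of shared array sites was 3 of 6 with summits within 250 bp, any overlap or 50% reciprocal overlap, and 2 of 6 at a −log10 q of at least 10 in both lists. With the 20000 strongest peaks of each list no array site was left in Ins, so no value could be given, and 1 of 1 HoxB summits outside the array was found in Inv.

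Shares of unmatched summits moved with the matching. The lost share on the array copy of chromosome 11 was 34.2% at a −log10 q of at least 10 in both lists, 12.4% with the 20000 strongest, 34.1% within 250 bp, 31.8% with any overlap and 38.6% with reciprocal overlap. In the same order it was 34.8%, 10.6%, 33.3%, 31.2% and 38.7% on the Del copy, and 42.4%, 25.9%, 40.7%, 37.6% and 47.5% on the other autosomes (43.5% with chromosome 11 kept). The Del and array copies thus stayed below the other autosomes under each of these 5 alternatives. The gained share on the other autosomes was 8.02%, 20.7%, 15.3%, 14.1% and 26.1%, in the same order.

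Promoters held 8.99% of lost summits, and 5.01% with the 20000 strongest, 8.54% within 250 bp, 8.07% with any overlap and 11.4% with promoters of 2 kb. They held 9.41% of gained summits, and 10.5% at a −log10 q of at least 10, 7.58% with the 20000 strongest, 8.003% within 250 bp, 7.84% with any overlap and 11.7% at 2 kb. With either end of any protein-coding gene in place of known starts, an alternative chosen after seeing the data, the shares were 11.9% and 11.9%. At a −log10 q of at least 10 in both lists, promoters lost 49.6% of their summits, against 42.4% over all. They gained 12.0%, against 8.02%. With the 20000 strongest these were 25.9% against 25.9% lost and 28.2% against 20.7% gained. With any overlap promoters lay below, at 34.9% against 37.6% lost and 12.8% against 14.1% gained. These alternatives were not matched on strength. Like peaks matched on pileup and background were missing in 30.8% of cases for site 1 and 33.3% for site 2, in place of 45.3% and 37.7%. The causes were not tested beyond the construction of each alternative. No paired analysis was possible because each genotype has 1 library. The lower depth of Inv limits every absence, and among the array sites most those of sites 1 and 2.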

Other observations

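Of the strong Ins peaks, a small set was found in that list alone. With a −log10 q of at least 50 and no summit within 500 bp in any of the other 3 lists, 27 Ins peaks of the autosomes other than chromosome 11 remained, 18 of them at 100 or more, out of 22370 Ins peaks of that strength. The same count was 0 in the Del(CBS8-10) and Inv lists and 11 in the Inv:Del(CBS7-10) list. On chromosome 11 the summit at 25100149, described above, also met this rule and is not counted. This set was chosen after its values were seen. Its peaks were narrow, with a median width of 263 bp against 493 bp for all Ins peaks of that strength, and had a median fold of 29.9 against 18.6. They lay on 13 chromosomes, 11 inside protein-coding genes, 3 inside lncRNA genes, 4 within 10 kb of a gene and 9 farther away, and none at a known promoter. Besides those already named, they included summits in Acacb, an acetyl-CoA carboxylase gene, with a pileup of 281, Ybx3, a cold-shock domain protein gene, with 148, and Myo7a, an unconventional myosin gene, with 114. Of the 27, 23 had no further Ins summit within 5 kb.

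The first 0.1 Mb of mapped chromosome 9 held 38 Ins summits and 16 Inv summits. Of these 38 Ins summits, 23 had no Inv summit, against 43.9% of all Ins summits on the autosomes other than chromosome 11. The median Ins background there was 513 and the median fold 2.70.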
